A study of Mus musculus
Rattus norvegicus and Rattus norvegicus and Mus musculus with 18 samples.

Results

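Rat transcripts of blood and lymphatic endothelium were followed in SRG rats carrying 4T1 tumors. The set was defined by symbol and held 10 genes, of which 9 were found among the 14876 rat genes of the deposited table: Plvap (ENSRNOG00000017676), Emcn (ENSRNOG00000022910), Cdh5 (ENSRNOG00000013324), Esam (ENSRNOG00000033217), Egfl7 (ENSRNOG00000019388), Vwf (ENSRNOG00000019689), Eng (ENSRNOG00000050190), Pdpn (ENSRNOG00000014961) and Prox1 (ENSRNOG00000003694). Robo4 was not analysed here. Because the cancer cells are mouse and the host is rat, reads assigned to rat genes were taken as the host readout. Some mouse reads were also assigned to rat genes. The share expected from 4T1 cells, at the rate seen in a pellet of these cells, is given for some of the genes where it was large.

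Endothelial cells line blood and lymph vessels. Blood endothelium seals its cell contacts with VE-cadherin (Cdh5) and the adhesion molecule Esam, stores the clotting protein von Willebrand factor (Vwf), and in permeable capillaries and venules carries Plvap, which forms the diaphragms of fenestrae and caveolae. Lymphatic endothelium is set apart by the transcription factor Prox1 and the surface protein podoplanin (Pdpn). Few of these genes belong to endothelium alone: Vwf and Esam are also made by megakaryocytes, Eng by activated macrophages and stromal cells, and Pdpn by fibroblasts and by the type 1 cells of lung alveoli.

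The hosts were SRG rats, an immunodeficient strain that lacks Rag2 and Il2rg. 4T1, a mouse breast cancer line, had been placed in their mammary fat pads, and tissue was taken on day 27. Every sample is labelled wildtype and untreated. Necrotic core and non-necrotic rim were cut from the tumors of 5 rats (5 libraries each). Another 5 libraries, described as lung metastasis, came from lungs, 4 of them from these rats and 1 from Rat3789, and 2 came from normal rat mammary gland without a graft. The 1 library of pelleted 4T1 cells gave the rate at which mouse reads were assigned to rat genes. Age and sex of the rats are not given in the labels.

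Rat reads numbered 3146720 to 4221679 per core library, 4900651 to 9183248 per rim library and 6976025 to 10015352 per lung library. The library labelled lung from Rat3789 stood apart. Its 7 alveolar type 1 markers summed to 187 CPM (the deposited normalized read count) against 2155 to 3973 in the other lungs. Its fibroblast markers summed to 26562 CPM against 2357 to 6615. Counts of members and most member differences on the lung are therefore also given without it, and other lung values include it.

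**Figure D1:**
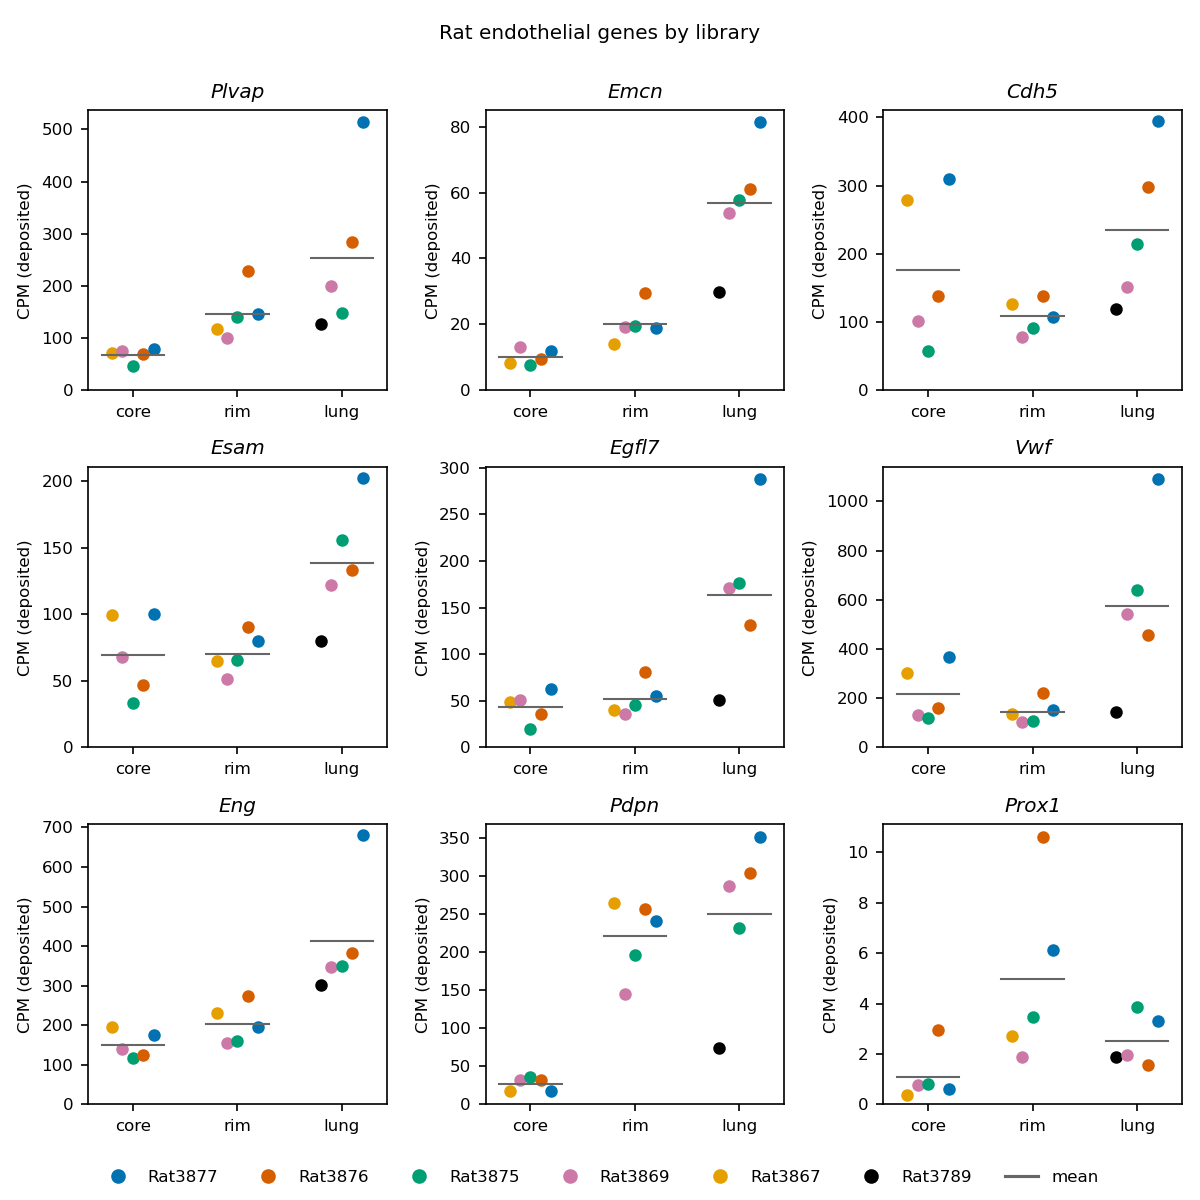
Deposited CPM (y axis, from 0) of each of the 9 genes in core, rim and lung (x axis), 1 point per library coloured by rat, with the group mean as a grey line. Pdpn separates core (17.6 to 36.4 CPM) from rim (145 to 265 CPM), while the Cdh5 points of the core (57.1 to 309.9 CPM) span those of the rim (78.7 to 139 CPM).

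The necrotic core held less of the surface transcripts Pdpn, Plvap and Emcn than the rim. The junction members Cdh5 and Esam and the clotting member Vwf were not called as different. Of the 9 members tested, 4 fell in the core (Pdpn, Plvap, Emcn and Prox1, the last tested only because of its rims), 0 rose and 5 were not called by limma (adjusted p under 0.05). Over all 13559 rat genes tested, 37.6% were called, 17.5% as higher and 20.1% as lower. The members' median log2 difference between core and rim was -0.43, against 0.00 over all genes tested. Fewer endothelial cells and less RNA per cell cannot be told apart in these bulk libraries.

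Among the lymphatic members, Pdpn changed most. In Rat3877, Rat3876, Rat3875, Rat3869 and Rat3867, its level was 17.8, 32.6, 36.4, 32.0 and 17.6 CPM in the core and 242, 257, 197, 145 and 265 CPM in the rim. Every core lay below every rim. The fall was 8.31-fold (log2 difference -3.05 ± 0.25 SE, limma adjusted p = 0.000108) and was seen in 5 of 5 rats. The 2 cores with the least Pdpn, of Rat3867 and Rat3877, were the ones with the most Cdh5.

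Prox1, the transcription factor that sets lymphatic identity, was scarce in every library. The cores of Rat3877, Rat3876, Rat3875, Rat3869 and Rat3867 held 2, 9, 2, 2 and 1 Prox1 reads (0.631, 2.93, 0.795, 0.788 and 0.364 CPM). The rims held 31, 97, 15, 9 and 13 reads (6.13, 10.6, 3.45, 1.88 and 2.72 CPM). Core and rim overlapped through the core of Rat3876, yet the core was lower within each of the 5 rats (log2 difference -2.28 ± 0.43 SE, limma adjusted p = 0.00414). Prox1 reached 1 CPM in 5 rims but only 1 core, so it was tested because of its level in the rim. The call ended without Rat3876 and Rat3877 together (-2.09, adjusted p = 0.0651).

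Fibroblast markers moved with Pdpn: 7 of 7 tested fell in the core, and their summed level ranged from 3408 to 11401 CPM over the cores and from 32749 to 61023 CPM over the rims. Among them Thy1, a surface protein of fibroblasts and other cells, differed by -2.76, within a range of -3.98 to -1.92 over the list. The part of these cells in the Pdpn result was not tested.

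Of 7 genes tested from a further lymphatic list, 5 fell, 0 rose and 2 were not called, where 20.1% of all genes fell. Of the 5, 3 did not reach 1 CPM in all cores and so were tested because of their rims. Lyve1, a hyaluronan receptor of lymphatic endothelium that some macrophages share, averaged 17.4 ± 7.08 CPM over 5 cores and 312 ± 186 CPM over 5 rims (SD; -4.06, limma adjusted p = 0.000444). Of 8 macrophage markers, 3, named after their values were seen, were lower with it and 4 rose: Cd163 averaged 156 ± 133 CPM over 5 cores and 1695 ± 779 CPM over 5 rims (SD; -3.71, adjusted p = 0.000821), and Adgre1 (-1.86, adjusted p = 0.00188) and Mrc1 (-0.81, adjusted p = 0.0154) fell too. All 8 macrophage markers together summed to 10998 to 15700 CPM over the cores and to 8668 to 12624 CPM over the rims. The part of macrophages in the Lyve1 result was not tested. Reads expected from 4T1 cells made up 9.14 to 37.5% of the Lyve1 reads in the cores. The lymphatic chemokine Ccl21 averaged 0.553 ± 0.482 CPM over the cores, or 0 to 4 reads a library, where 5.45 to 6.47 would be expected from 4T1 cells. The rims held 158, 366, 10.8, 7.03 and 34.1 CPM of Ccl21 in Rat3877, Rat3876, Rat3875, Rat3869 and Rat3867, a mean of 115 CPM, or 52.5 CPM without Rat3876. The secreted protein Reln was at 0.256 ± 0.154 CPM, or 0 to 1 reads, against 13.4 ± 14.0 CPM. Flt4, the receptor for lymphatic growth factors, averaged 34.6 ± 11.8 CPM over the cores and 24.0 ± 8.59 CPM over the rims (0.52, adjusted p = 0.141). Flt4 was called as higher in the core without Rat3876 (0.84, adjusted p = 0.00659) and without Rat3876 and Rat3877 together (0.83, 0.0284).

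The surface genes of capillaries and venules fell by a smaller factor. Plvap was at 78.8, 70.6, 47.5, 74.8 and 71.5 CPM in the cores of Rat3877, Rat3876, Rat3875, Rat3869 and Rat3867, and at 147, 229, 139.9, 100.4 and 117 CPM in their rims. Core and rim did not overlap. Plvap was 2.08-fold lower in the core (-1.06 ± 0.19 SE, limma adjusted p = 0.00304).

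Emcn, the sialomucin endomucin of capillary and venous endothelium, was at 11.98, 9.42, 7.79, 13.1 and 8.38 CPM in the same cores and at 19.0, 29.4, 19.5, 19.3 and 14.2 CPM in the rims. Here too every core lay below every rim, and the level was 1.99-fold lower in the core (-0.99 ± 0.20 SE, limma adjusted p = 0.00598). Groups without overlap were found for 26.4% of all genes tested (11.8% higher, 14.6% lower) and for 3 of the 9 members (Pdpn, Plvap and Emcn). At the rate of rat reads in the 4T1 pellet, 12.5 to 23.5% of the Emcn reads in the cores would come from 4T1 cells. After subtracting such reads, Emcn differed by -1.18 and Plvap by -1.13, and both stayed called.

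The junction members were not called. Cdh5 was at 309.9, 138, 57.1, 101 and 278 CPM in the cores of Rat3877, Rat3876, Rat3875, Rat3869 and Rat3867, and at 107, 139, 91.8, 78.7 and 127 CPM in the rims. Within rats, 3 of 5 had more in the core (0.47 ± 0.28 SE, limma adjusted p = 0.232), with a 95% interval from 0.88 to 2.17 times the rim. The cores of Rat3877 and Rat3867 lay above all rims and the core of Rat3875 below all of them, a spread of 5.43-fold against 1.76-fold among rims.

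Esam, the endothelial cell adhesion molecule of tight junctions, averaged 69.6 ± 30.3 CPM over 5 cores and 70.4 ± 15.0 CPM over 5 rims (SD). Its difference of -0.11 was not called (limma adjusted p = 0.752), and the 95% interval ran from 0.62 to 1.38 times the rim. As for Cdh5, the cores of Rat3877 (100.01 CPM) and Rat3867 (99.7 CPM) were the highest and that of Rat3875 (33.2 CPM) the lowest.

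The secreted members were not called either. Vwf was at 367, 159, 121, 132 and 302 CPM in the cores of Rat3877, Rat3876, Rat3875, Rat3869 and Rat3867, and at 151, 221, 108, 105 and 134 CPM in the rims. It was above the rim in 4 of 5 rats (0.49 ± 0.24 SE, limma adjusted p = 0.141), and without Rat3876, the exception, Vwf was called as higher (0.74, adjusted p = 0.0274). Of the markers of platelets, whose precursors also make Vwf, 3 were tested: 1 fell and 2 were not called, and the list summed to 21.8 to 63.5 CPM over the cores and 50.2 to 76.2 CPM over the rims; their part in the Vwf level was not tested. Egfl7, a matrix-bound protein secreted by endothelium, averaged 43.3 ± 16.6 CPM over the cores and 51.5 ± 18.1 CPM over the rims (-0.29, limma adjusted p = 0.436). Its 95% interval ran from 0.53 to 1.26 times the rim. At the pellet rate, 3.84 to 15.3% of the Egfl7 reads in the cores would come from 4T1 cells.

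Eng, the co-receptor endoglin of the TGF-beta and BMP pathway, lay at the threshold. The cores of Rat3877, Rat3876, Rat3875, Rat3869 and Rat3867 held 176, 124, 118, 141 and 194 CPM and the rims 196, 274, 161, 156 and 231 CPM. The core was lower in 5 of 5 rats (-0.43 ± 0.15 SE, limma adjusted p = 0.0503). Eng was called as lower by DESeq2 (-0.43, adjusted p = 0.0444), with 1 CPM added (-0.43, 0.0493) and after subtracting reads expected from the pellet (-0.45, 0.0499). It was not called by edgeR (-0.43, adjusted p = 0.0572), with total-read scaling (-0.41, 0.0513) or without the rat block (-0.43, limma adjusted p = 0.0825).

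Eng was the only member with a high level on its mouse gene, which averaged 122 ± 14.6 CPM of the mouse table over 5 cores and 83.9 ± 13.7 CPM over 5 rims (SD). Mouse Emcn, Vwf, Pdpn and Prox1 were not analysed here, and mouse Plvap, Cdh5, Esam and Egfl7 averaged at most 2.84 CPM in either region. The rat Eng reads that the pellet would predict from its mouse Eng reads made up 4.97 to 9.47% of those in the cores and 0.92 to 3.00% in the rims.

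**Figure D2:**
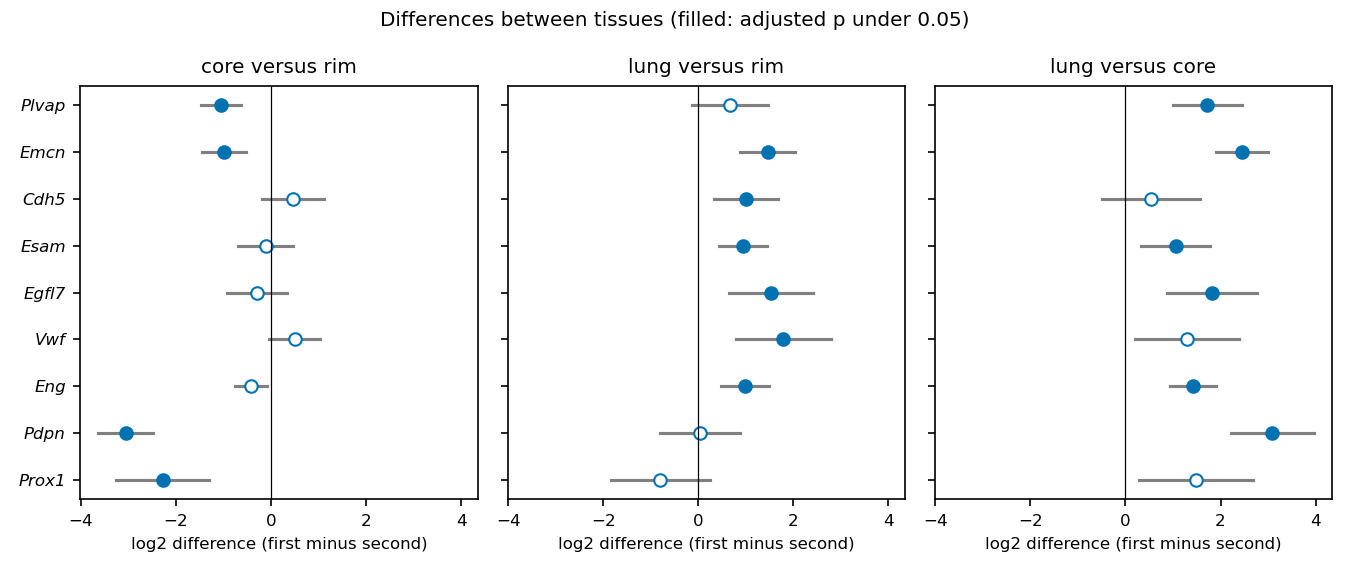
Log2 difference (x axis) of each of the 9 genes (y axis) for core versus rim, lung versus rim and lung versus core, with the 95% interval of limma as a line; filled points had adjusted p under 0.05. In core versus rim, 4 filled points lie below 0, from -3.05 (Pdpn) to -0.99 (Emcn), and in lung versus rim 6 lie above 0.

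To ask whether members moved apart from the pan-endothelial junction gene within a library, each was divided by Cdh5. The ratio fell in the core for Plvap, Emcn and Pdpn. The log2 ratio of Plvap to Cdh5 averaged -1.12 ± 0.82 over 5 cores and 0.40 ± 0.32 over 5 rims (SD), lower in 5 of 5 rats (difference -1.52; exact two-sided permutation p = 0.00794, adjusted p = 0.0212 over 8 ratios). Emcn to Cdh5 differed by -1.46 (exact permutation p = 0.0238, adjusted p = 0.0476), also lower in 5 of 5 rats. This adjusted p lay near the threshold, and it depends on counting the Prox1 ratio, only described below, among the 8.

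The ratio of Pdpn to Cdh5 differed by -3.52, with exact permutation p = 0.00794 (adjusted p = 0.0212), the lower limit of this design. That of Prox1 differed by -2.75, given as a description because it rests on 1 to 9 core reads of a gene tested through its rims. Eng to Cdh5 differed by -0.90, lower in 4 of 5 rats, and was not called (exact permutation p = 0.0476, adjusted p = 0.0762). Esam (-0.58) and Egfl7 (-0.76) had adjusted p = 0.0816 in the exact permutation test, and the ratio of Vwf to Cdh5 differed by 0.03 (adjusted p = 0.913). The pan-endothelial receptor Kdr, used in place of Cdh5 as a choice made after seeing the data, gave -0.95 for Plvap, -0.88 for Emcn and -2.95 for Pdpn, and all 3 stayed called. Sign flips within the 5 rats cannot give a p under 0.0625, so that paired test cannot call any of them.

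**Figure D3:**
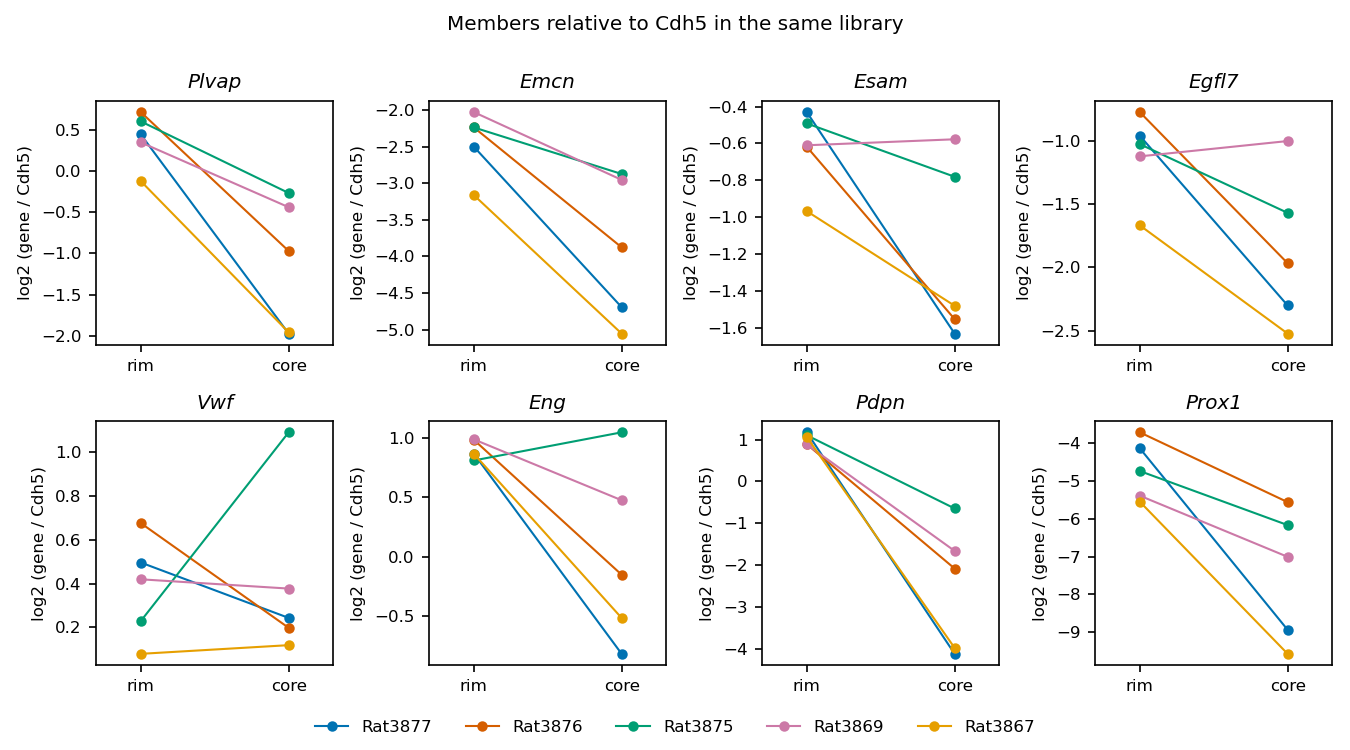
Log2 ratio of each gene to Cdh5 in the same library (y axis) in rim and core (x axis), with a line for each of the 5 rats. The lines of Plvap, Emcn, Pdpn and Prox1 fall in 5 of 5 rats, while those of Vwf fall in 3 of 5 rats and differ by 0.03 on average.

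Other genes of blood endothelium also went both ways. Of 26 pan-endothelial genes tested, 5 fell, 2 rose and 19 were not called, with a median log2 difference of -0.26. Calls were no more frequent than over all genes tested, of which 37.6% were called, 17.5% as higher and 20.1% as lower. Cd34, a sialomucin of endothelium and stromal progenitors, fell by 1.52 on the log2 scale (limma adjusted p = 0.00837), Procr, the endothelial protein C receptor, by 0.94 (adjusted p = 0.0228) and the angiopoietin receptor Tek by 0.84 (adjusted p = 0.00521). Procr was not called without Rat3875 (adjusted p = 0.0734), nor with both Rat3876 and Rat3877 left out (0.0946).

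The VEGF receptor genes Kdr (-0.11, limma adjusted p = 0.528) and Flt1 (0.49, adjusted p = 0.0617) were not called, and the junction regulator Rasip1 differed by -0.02. Flt1 was called as higher without Rat3876 (0.64, adjusted p = 0.0289). The 2 genes that rose were Lyl1, a transcription factor of blood and endothelial cells (0.75, adjusted p = 0.00455), and Icam2, an adhesion molecule of endothelium and leukocytes (0.53, adjusted p = 0.0233). Icam2 was not called without Rat3877, Rat3869 or Rat3867 (adjusted p = 0.0592, 0.0547 and 0.0773), nor with both Rat3876 and Rat3877 left out (0.0636). Kdr, Flt1, Lyl1 and Icam2 were named after their values were seen.

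Of 6 arterial genes, 4 fell, 0 rose and 2 were not called, where 20.1% of all genes fell. Of the 4, Hey1 and Gja5 reached 1 CPM in 0 and 1 of the cores and were tested because of their rims. The Notch target Hey1 averaged 0.645 ± 0.292 CPM over 5 cores, or 0 to 3 reads a library, and 5.62 ± 2.61 CPM over 5 rims (SD). The arterial ligand Efnb2 averaged 17.9 ± 6.16 and 80.0 ± 18.1 CPM (-2.19, limma adjusted p = 0.000184). Reads expected from 4T1 cells made up 65.2 to 107% of the 49 to 88 Efnb2 reads in the cores and 6.84 to 16.2% of those in the rims, so the core level of Efnb2 was near that of the pellet background. The gap junction gene Gja5, with 0 to 14 reads a core, averaged 1.38 ± 1.75 and 6.52 ± 5.93 CPM. In the cores with Gja5 reads, 9.73 to 73.5% of them would be expected from 4T1 cells. Gja4, another arterial gap junction gene, was not called (-0.45, adjusted p = 0.174).

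Of 6 venous and activated genes, 5 fell, where 20.1% of all genes fell, and Icam1 was not called (0.34, limma adjusted p = 0.0968). Of the 5, Sele and Vcam1 reached 1 CPM in 3 and 2 of the cores and were tested because of their rims. The leukocyte adhesion gene Sele, with 2 to 12 reads a core, averaged 1.56 ± 1.34 CPM over the cores and 48.0 ± 39.5 CPM over the rims. Vcam1, another, averaged 1.47 ± 1.23 and 19.5 ± 12.9 CPM, and its 1 to 9 reads a core compare with 5.45 to 6.47 expected from 4T1 cells. Selp averaged 3.84 ± 1.01 and 16.5 ± 13.9 CPM (-1.73, limma adjusted p = 0.0121). Selp was not called without Rat3876 and Rat3877 together (-0.99, adjusted p = 0.146). Icam1, which leukocytes and stromal cells also make, was called as higher without Rat3877 (0.51, adjusted p = 0.00769) and without Rat3876 and Rat3877 together (0.55, 0.0207).

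Tip-cell genes went both ways. Of 10 tested, 3 rose, 4 fell and 3 were not called, where 17.5% of all genes rose and 20.1% fell. The laminin chain Lama4 (-1.93, limma adjusted p = 9.79e-05), the potassium channel subunit Kcne3 (-1.74, adjusted p = 0.00601) and the basement membrane gene Nid2 (-1.71, adjusted p = 0.000323) fell. Angpt2, the antagonist of Tek signalling, differed by 0.02.

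The genes that rose, named after their values were seen, were the peptide Apln, the Notch ligand Dll4 and the chemokine receptor Cxcr4. Apln averaged 40.9 ± 18.1 CPM over 5 cores and 16.2 ± 4.84 CPM over 5 rims (SD; 1.25, limma adjusted p = 0.00596), Dll4 49.1 ± 33.1 and 16.8 ± 3.12 CPM (1.31, adjusted p = 0.0117) and Cxcr4, which leukocytes also carry, 301 ± 75.4 and 95.3 ± 24.4 CPM (1.67, adjusted p = 8.21e-05). Apln was not called without Rat3876 and Rat3877 together (1.00, adjusted p = 0.0728), nor was Dll4 (0.95, 0.0517). All 5 rats had more of each in the core. Macrophage markers also moved: of 8, 4 rose and 3 fell, and their summed level ranged from 10998 to 15700 CPM over the cores and from 8668 to 12624 CPM over the rims. Pericyte and smooth muscle markers fell in 6 of 9, with a median of -0.79. The part of these cells in the differences of shared genes was not tested.

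**Figure D4:**
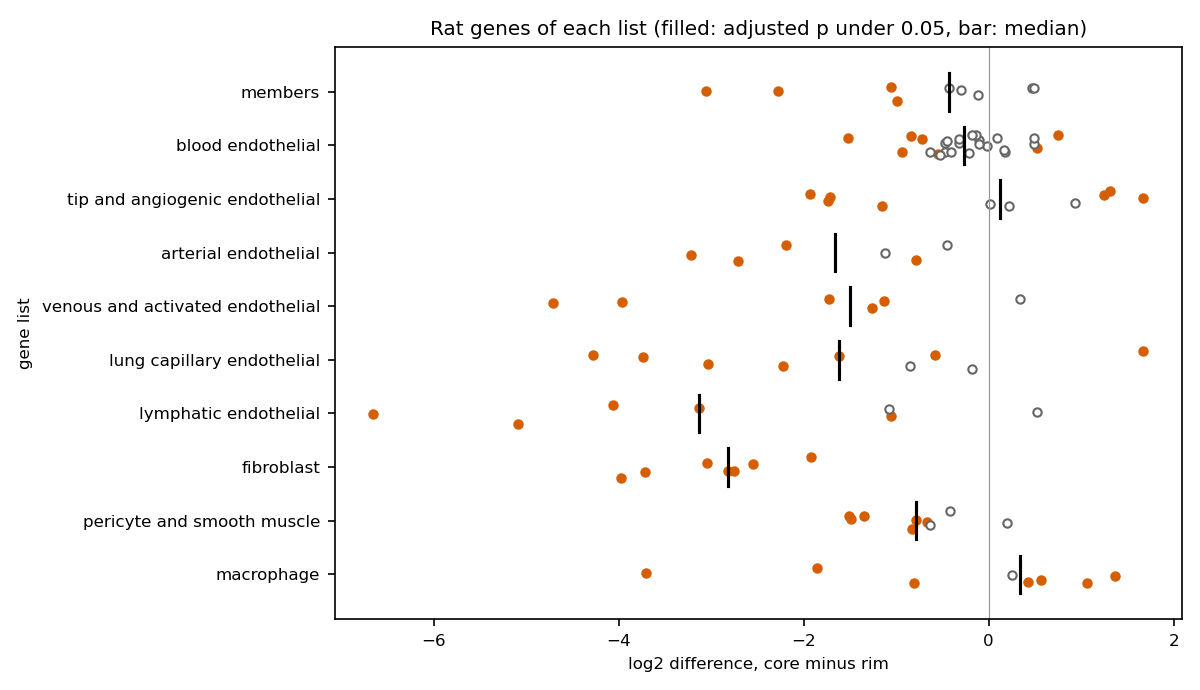
Log2 difference between core and rim (x axis) of each tested rat gene in the members, the endothelial lists and 3 lists of other cells (y axis); filled points had adjusted p under 0.05 and the bar marks the median. Pan-endothelial genes centre on -0.26 and fibroblast genes on -2.82, and 3 of the 5 lymphatic genes that fell were tested because of their rims.

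In the lung, most blood endothelial members were higher than in the rim. Of the 9 members, 6 rose (Emcn, Cdh5, Esam, Egfl7, Vwf and Eng), 0 fell and 3 were not called by limma (adjusted p under 0.05), where 22.1% of 13841 genes were called, 10.5% as higher and 11.6% as lower. Without the library of Rat3789, 6 of 9 were also called, against 31.0% of 14160 genes (16.7% higher, 14.3% lower). The lung comparisons share libraries with each other and with the comparison of core and rim. Calls were lost when rats were left out, with log2 differences from 0.79 to 1.64 for the calls lost to 1 rat: 1 member (Emcn) was called without Rat3875, 2 (Emcn and Eng) without Rat3869 and also without Rat3876 and Rat3877 together, and 3 (Emcn, Esam and Eng) without Rat3877. Without Rat3876 or Rat3867, Cdh5 was lost (adjusted p = 0.0897 and 0.0536). With the rat as a block, all 6 were called (limma adjusted p = 0.00117 to 0.00670). In lung comparisons the block fit rests on the 4 rats with both tissues, so Rat3789 and Rat3867 do not add to its differences.

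Vwf differed most between lung and rim. The lungs of Rat3877, Rat3876, Rat3875, Rat3869 and Rat3789 held 1091, 456, 641, 542 and 144 CPM of Vwf, against 105 to 221 CPM in the rims. The 4 lungs other than that of Rat3789 lay above all rims, and the mean was 3.45-fold higher (1.79 ± 0.45 SE, limma adjusted p = 0.0175), or 4.66-fold without Rat3789 (adjusted p = 0.000130). Of the platelet markers, 2 of 4 tested were higher in the lung, and the list summed to 73.0 to 128 CPM there. The rims held 50.2 to 76.2 CPM. Across lungs the sum did not follow Vwf: it was 74.4 CPM in Rat3877, with the most Vwf, and 128 CPM in Rat3789, with the least. Their part in the Vwf result was not tested.

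Emcn was the member whose call held without each rat in turn. The lungs of Rat3877, Rat3876, Rat3875, Rat3869 and Rat3789 held 81.3, 61.2, 57.9, 53.7 and 30.0 CPM of Emcn against 14.2 to 29.4 CPM in the rims. No lung overlapped the rims, and the difference was 1.46 ± 0.26 SE (limma adjusted p = 0.00296; 1.67 without Rat3789, adjusted p = 9.74e-05). Eng did not overlap either, at 301 to 680.4 CPM against 156 to 274 CPM (0.99 ± 0.23 SE, limma adjusted p = 0.0114). Without Rat3789 the Eng difference was 1.08 (adjusted p = 0.00411). Emcn and Eng were the 2 members without overlap, which 14.7% of all genes tested showed, 6.10% as higher and 8.57% as lower.

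Egfl7 was 2.89-fold higher in the lung (limma adjusted p = 0.0202), Cdh5 2.01-fold (adjusted p = 0.0362) and Esam 1.92-fold (adjusted p = 0.0152). Without Rat3789 these became 3.73-fold, 2.33-fold and 2.18-fold. The lung of Rat3877 was the highest of the 5 for 8 of 9 members and that of Rat3789 the lowest for 8 of 9.

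Plvap and the lymphatic members were not called between lung and rim. Plvap averaged 254 ± 157 CPM over 5 lungs and 146 ± 49.5 CPM over 5 rims (SD). Its difference was 0.66 (limma adjusted p = 0.221), or 0.87 without Rat3789 (adjusted p = 0.0761). Pdpn was at 352, 305, 232, 287 and 73.9 CPM in the lungs of Rat3877, Rat3876, Rat3875, Rat3869 and Rat3789, around the rims of 145 to 265 CPM (0.03, adjusted p = 0.963; 95% interval 0.57 to 1.84 times the rim). With the rat as a block, which rests on 4 rats and not on the lung of Rat3789, Pdpn was called as higher in the lung (0.50, limma adjusted p = 0.0378). Without Rat3789 and without a block, Pdpn was not called (0.43, limma adjusted p = 0.105).

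Alveolar type 1 markers, whose cells also make Pdpn, were higher in the lung for 6 of 7 tested and fibroblast markers lower for 7 of 7. Type 1 markers summed to 187 to 3973 CPM over the lungs and 75.8 to 124 CPM over the rims. Their part in the Pdpn level was not tested. Prox1 was at 1.56 to 3.85 CPM in the lung and differed by -0.80 from the rim (limma adjusted p = 0.262).

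Other endothelial genes were mixed between lung and rim. Of 26 pan-endothelial genes, 7 rose, 1 fell and 18 were not called, where 22.1% of all genes were called. Of 9 lung capillary genes, 1 rose, 1 fell and 7 were not called, and of 8 lymphatic genes 0 were called. Gja5 (3.58, limma adjusted p = 0.00510) and Sema3g, a semaphorin of arterial endothelium (2.85, adjusted p = 0.00349), were higher, within 4 of 6 arterial genes that rose. Icam1 (1.72, adjusted p = 0.0183) and Vcam1 (1.71, adjusted p = 0.00920) were the 2 venous and activated genes of 6 that rose, and Sele was not called (-1.59, adjusted p = 0.104). Icam1 was not called without Rat3877, Rat3876, Rat3875 or Rat3869 (adjusted p up to 0.0910), and Vcam1 was not called without Rat3869 (0.0586). Among tip-cell genes, 5 of 10 fell, led by Nid2 (-2.33, adjusted p = 0.00410), and Apln rose (1.64, adjusted p = 0.00876), a call that ended without Rat3876 (0.0547) or Rat3875 (0.0569). Without Rat3876 and Rat3877 together, Apln (0.155), Sema3g (0.0552) and Icam1 (0.234) were not called. Lyve1, named after its values were seen, averaged 415 ± 239 CPM over 5 lungs and 312 ± 186 CPM over 5 rims (SD). Its difference of 0.50 was not called (limma adjusted p = 0.498). The lymphatic list, Lyve1 included, summed to 889 CPM in the lung of Rat3789 and to 383 to 639 CPM in the other lungs.

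Against the core, the lung was higher for 6 of the 9 members by limma: Plvap, Emcn, Esam, Egfl7, Eng and Pdpn. Over 13579 genes, 32.8% were called, 17.9% as higher and 14.9% as lower. Plvap, Emcn, Eng and Pdpn did not overlap, as did 21.1% of these genes (10.7% higher, 10.3% lower). Without Rat3789 the count was 7, with Vwf added (1.73, adjusted p = 0.00261), against 39.0% of 13979 genes (22.1% higher, 16.9% lower). Pdpn was 8.50-fold higher in the lung than in the core (3.09 ± 0.40 SE, limma adjusted p = 0.000348), and 11.2-fold without Rat3789. Emcn was 5.45-fold higher (limma adjusted p = 0.000100) and Plvap 3.29-fold (adjusted p = 0.00294). Without Rat3789 these became 6.32-fold and 3.79-fold.

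Egfl7 was 3.54-fold higher (limma adjusted p = 0.00870), Eng 2.67-fold (0.000931) and Esam 2.08-fold (0.0291), although Esam was not called without Rat3876, Rat3875 or Rat3869 (adjusted p = 0.110, 0.123 and 0.0747). Without Rat3876 and Rat3877 together, neither Esam (0.209) nor Egfl7 (0.109) was called. With only Rat3789 left out, Egfl7, Eng and Esam were 4.58-fold, 2.85-fold and 2.36-fold higher. Cdh5 (0.54, adjusted p = 0.404), Vwf (1.29, 0.0654) and Prox1 (1.49, 0.0575) were not called. With the rat as a block, and so without a part for Rat3789, Cdh5 (0.99, 0.0132) and Vwf (1.88, 0.000126) were called. Vwf was also called by edgeR (1.42, 0.0429) and DESeq2 (1.41, 0.00823). With total-read scaling (limma adjusted p = 0.0569), 1 CPM added (0.0636) or pellet reads subtracted (0.0671), Vwf was not called. Prox1, which reached 1 CPM in only 1 core and so was tested because of its lungs, was called with total-read scaling (1.60, 0.0478). It was also called without Rat3876 (2.08, 0.0146), whose core held the most Prox1 reads (9). Prox1 was not called with the rat as a block (limma adjusted p = 0.163), by edgeR (0.0793) or by DESeq2 (0.0665). Nor was it called with 1 CPM added (limma adjusted p = 0.0646) or with pellet reads subtracted (0.054).

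Most endothelial lists were higher in the lung than in the core as well, where 17.9% of all genes rose. Of 26 pan-endothelial genes, 14 rose and 0 fell. All 6 arterial, all 6 venous and activated and 5 of 8 lymphatic genes rose. Gja5, Hey1, Bmx, Sele and Vcam1, and the lymphatic Ccl21, Mmrn1, Reln and Foxc2, did not reach 1 CPM in all cores. They were tested because of their lungs. Core levels of Efnb2, Vcam1, Ccl21 and Foxc2 were near or below the pellet background. Sema3g (3.63, limma adjusted p = 0.000871) and Lyve1 (4.56, adjusted p = 5.37e-05) were among the genes called. Cxcr4, among 3 tip-cell genes that fell, was lower in the lung (-1.79, adjusted p = 0.000753).

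Set in order of mean level, Emcn ran from core to rim to lung, and each neighbouring pair differed by limma. For Plvap the order was the same, but rim and lung did not differ beyond their spread. Esam, Egfl7 and Eng also ran from core to rim to lung, with lung above both and no call between core and rim. Cdh5 and Vwf ran from rim to core to lung, and lung and rim were called, while lung and core were called only under the alternatives given above. Pdpn ran from core to rim to lung with a step between core and rim. Prox1 ran from core to lung to rim, and its call between core and rim ended without Rat3876 and Rat3877. Between core and lung, Prox1 was called only with total-read scaling or without Rat3876, and not under the other alternatives given above.

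The normal mammary gland was deposited in another table as counts, so it is described without a test. The 2 gland libraries held 20692580 and 21387704 rat reads, and differed from each other in blood endothelial genes, though not only in these. Plvap was at 53.8 CPM in library 1 and 259.9 CPM in library 2, Emcn at 16.6 and 78.0 CPM, and Cdh5 at 27.9 and 131 CPM. Library 2 exceeded library 1 by 3.25-fold (Egfl7) to 4.86-fold (Eng) in the 7 blood endothelial members. Pdpn was at 17.9 and 29.4 CPM and Prox1 at 0.918 and 0.982 CPM, or 19 and 21 reads.

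The fast muscle myosin Myh4 took 8.81% of rat reads in gland library 1 and 6.41% in library 2. Adipocyte markers were 2.89-fold to 6.27-fold higher in library 2, and the epithelial genes Krt5 and Epcam, named after their values were seen, 105-fold (6 and 652 reads) and 31.8-fold (7 and 230 reads). Macrophage (median 3.26-fold), pericyte and smooth muscle (2.98-fold) and fibroblast markers (2.15-fold) were also higher in library 2, against 3.61-fold for the members. Mesothelial markers (0.41-fold) and Myh4 (0.73-fold) were lower there. The part of muscle, fat, epithelium and these other cells in the difference between these libraries was not tested. The pellet held 0 rat reads of Prox1 and 7 (Esam) to 21 (Plvap) of the other members among 213086 rat reads.

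Within the tumors, libraries of a rat did not keep 1 rank. The rim of Rat3876 was highest of the rims for 8 of 9 members and the rim of Rat3869 lowest for 8 of 9. Among cores, that of Rat3877 was highest for 5 members and that of Rat3875 lowest for 7. Rat reads were most numerous in the rim of Rat3876 (9183248), which also had the smallest share of mouse reads among rims (65.7% against 79.6 to 81.3%).

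The rat genes whose levels followed a member most closely over the 10 tumor libraries were named by Pearson correlation, as a description only, since these libraries share 5 rats and the difference between core and rim. For Emcn they were Nr2f2 (0.97), a transcription factor of venous endothelium, Exoc3l2 (0.96) and Dync1i2 (0.95). For Cdh5 they were Snx12 (0.95), Dnaja4 (0.95) and the growth factor gene Pdgfb (0.94). For Vwf they were Pald1 (0.97), Wscd1 (0.96) and the junction gene Cgnl1 (0.95).

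For Pdpn they included the microfibril gene Fbn1 (0.99) and Pxylp1 (0.99), for Plvap Pcsk6, Tgoln2 and Steap4 (0.98 each), and for Eng the basement membrane collagen Col18a1 (0.94) and the endothelial gene Ecscr (0.93). Esam followed Ttc9, Adam15 and Mall (0.94 each), Egfl7 followed Chn1 (0.94) and Osbpl9 (0.93), and Prox1 followed Akt2, Adamts5 and Dpep1 (0.95 each).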

How the data were processed

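PolyA RNA-seq of tumor, lung and gland tissue was read here for rat genes. The submitters' processing notes list STAR, Trim Galore, limma and featureCounts, and the builds Rnor_6.0 and GRCm38. Tool versions, how reads were assigned to a species and the strand setting were not given in the sources used here, so overlapping antisense genes cannot be told apart. Gland and pellet values are whole-number counts, as deposited. For tumor and lung the authors deposited a normalized signal named CPM per the file headers. Dividing by a library constant and taking off 0.5 gave back read numbers, and 100% of values came out whole within 0.01 reads. Columns not mapped to a sample numbered 0. Gland libraries are called 1 and 2 as in the deposited table, since the labels number them otherwise. Rat gene positions and sequences were not used here.

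The test was limma 3.58.1 (trend) in R 4.3.3, two-sided, on log2 of the deposited signal, with Benjamini-Hochberg adjusted p under 0.05 over all rat genes that reached 1 CPM in 5 or more of the compared libraries. Core and rim were compared with the rat as a block, because both came from 1 tumor. Same-rat deviations (core against rim) correlated at 0.34, 0.09, 0.09, 0.03 and 0.03. Lung comparisons had no block. Ratios to Cdh5 were tested by exact permutation. Alternatives were edgeR 4.0.16 and DESeq2 1.42.0 on the recovered reads, other scalings, offsets and filters, subtraction of reads expected from the pellet, and leaving out rats. The code was tested on simulated data.

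Members and lists were chosen with earlier results of these data known. Named genes are the members and genes of the pan-endothelial, tip-cell, arterial, venous and lymphatic lists. From each of these lists they are up to 3 called genes of largest difference. For core and rim the uncalled gene of smallest difference is added. Other names fall outside this rule. Several are said to be chosen after their values were seen, while Thy1 was named without a rule. The p-values measure the spread between these libraries, for core and rim by limma the spread left after the rat block. The lung fits without a block and the exact permutation test of the ratios do not use the pairing by rat.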

Additional observations from a re-analysis of the deposited data

Results flagged for a closer look

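A sample was flagged where its gap to the nearest other sample of its group took more of the group's range than Dixon's 95% value allows. Chance flags about 1 in 20 groups, and 3 of 27 groups (9 members in core, rim and lung) were flagged. Plvap in the core of Rat3875 was low, at 47.5 CPM against 70.6 to 78.8 CPM in the other cores. Eng in the lung of Rat3877 was high, at 680 CPM against 301 to 382 CPM in the other lungs. Prox1 in the core of Rat3876 was high, at 2.93 CPM (9 reads) against 0.364 to 0.795 CPM in the other cores.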

How the results depend on the processing

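Of the member results between core and rim, 126 alternative values kept direction and side of the threshold, 4 gained a call, 1 lost it and 3 changed sign. Without the pairing by rat (no replicate block), 4 members and 5049 genes were called, and no member changed its call. On the recovered reads, edgeR called 4993 and DESeq2 4364 genes between core and rim. With the replicate block, 3690 genes and 7 members were called between lung and rim, and 5053 genes and 8 members between lung and core. These block fits rest on the 4 rats with both tissues. With 1 rat left out, 3805 to 4763 rat genes and 4 to 5 members were called between core and rim, 1509 to 4385 genes and 1 to 6 members between lung and rim, and 2642 to 5452 genes and 5 to 7 members between lung and core. Without Rat3876 and Rat3877 together, 3392, 1072 and 1140 genes were called, and 2 members between lung and rim. With fewer rats the tests also have fewer libraries. Small differences changed sign: with 1 rat left out, Esam between core and rim ranged from -0.30 to 0.10, Rasip1 from -0.23 to 0.23 and Angpt2 from -0.20 to 0.39, and Pdpn between lung and rim from -0.20 to 0.43. Without Rat3876 and Rat3877 together, Esam was 0.014, Rasip1 0.032 and Pdpn between lung and rim -0.21; the cause was not tested.

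Ratios to Cdh5 with 1 rat left out ranged from -1.71 to -1.30 (Plvap), -1.66 to -1.27 (Emcn), -3.96 to -3.08 (Pdpn) and -3.08 to -2.23 (Prox1), with adjusted p = 0.0571 to 0.171 in the exact permutation test, which has fewer regroupings then. The ratio of Vwf was -0.18 without Rat3875. With the rat as a replicate block (sign flips), the differences stayed -1.52, -1.46, -3.52 and -2.75 with adjusted p = 0.125 in the exact test. Pecam1 as the reference was not run, since it was not analysed here. Total-read scaling moved the median log2 difference of all genes from 0.02 to 0.15 between lung and rim and from 0.03 to 0.14 between lung and core; the split of higher to lower calls went from 1458 to 1607 to 2435 to 1255, and from 2428 to 2024 to 3010 to 1454. Depth limits Prox1, with 1 to 9 reads in the cores.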
